A study of Mus musculus with 48 samples.

Results

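The 10 genes Atp5a1, Atp5b, Atp5c1, Atp5d, Atp5e, Atp5g1, Atp5g2, Atp5g3, Atp5o and Atp5k encode subunits of the mitochondrial ATP synthase. They were taken by these symbols from the 54532 genes of a deposited count table of mouse gastrocnemius muscle, and all 10 were among the 15583 genes that passed a filter on low counts. The table lists a second gene identifier under the symbol Atp5o, which had 0 counts in every library and was not used. Perfluorooctane sulfonate (PFOS), a persistent fluorinated surfactant, was given by oral gavage for 21 days at 0, 1 or 10 mg/kg/day. The mice were males and females of 2 genotypes, hCYP2B6-Tg, named for a human cytochrome P450 transgene, and Cyp2b-null, named for the loss of mouse Cyp2b genes. The labels give neither the promoter of the transgene nor the age of the mice. Each of the 4 combinations of genotype and sex (called strata) had 4 mice at each dose, except that hCYP2B6-Tg males numbered 5 at 0 mg/kg/day and males of the Cyp2b-null line 3 at 10, which made 17, 16 and 15 mice at the 3 doses and 48 libraries.

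ATP synthase is a rotary enzyme of the inner mitochondrial membrane. Protons that flow back through a membrane ring of c subunits turn a central stalk, and the turning stalk drives ATP formation in the F1 head on the matrix side, while a peripheral stalk holds the head still. In muscle fibres this is the last step of oxidative phosphorylation, and it supplies ATP for contraction during sustained work. Atp5a1 and Atp5b encode the alpha and beta subunits of the F1 head. Atp5c1, Atp5d and Atp5e encode the gamma, delta and epsilon subunits of the central stalk. Atp5o encodes OSCP, which joins the peripheral stalk to the head. Atp5k encodes subunit e, a small membrane protein at the contact between paired enzymes. Atp5g1, Atp5g2 and Atp5g3 are separate genes for subunit c, whose import signals are removed to leave the same ring protein.

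The 3 c subunit genes parted in their response to PFOS, so their sequences are shown first. The last 78 residues of their annotated proteins are identical in all 3, behind 58 residues in Atp5g1, 68 in Atp5g2 and 63 in Atp5g3. The 234 bases that encode those residues are 84.6% identical between Atp5g1 and Atp5g2, 78.6% between Atp5g1 and Atp5g3, and 77.4% between Atp5g2 and Atp5g3. The last 90 coding bases before the stop codon, from the GENCODE vM21 annotation of GRCm38, follow 5′ to 3′. Capitals mark the 24 positions at which the 3 genes are not all alike, which is how a read from this shared stretch can be assigned to a gene.
Atp5g1: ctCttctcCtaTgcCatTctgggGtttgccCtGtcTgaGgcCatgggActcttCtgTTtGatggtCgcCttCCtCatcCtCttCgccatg
Atp5g2: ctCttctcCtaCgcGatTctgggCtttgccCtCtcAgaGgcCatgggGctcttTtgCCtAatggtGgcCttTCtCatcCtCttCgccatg
Atp5g3: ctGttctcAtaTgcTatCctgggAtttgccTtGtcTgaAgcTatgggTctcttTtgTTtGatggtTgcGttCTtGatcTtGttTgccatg

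The sequence before an annotated start of transcription also differs between the 3 genes. Promoter windows of 300 bases around a start site (RefSeq, GRCm38.p6) were at hand for 9 of the 10 genes, all but Atp5a1. The 100 bases before the RefSeq start site are shown in the direction of the gene, at chr11:96075632-96075731 for Atp5g1, chr15:102671048-102671147 for Atp5g2 and chr2:73911327-73911426 for Atp5g3, all on the minus strand. Capitals mark exact matches, on either strand, to a motif of nuclear respiratory factor 1 (NRF1, GCGCATGCG; matches on both strands overlap here) or of the oestrogen-related receptors (ERR, TCAAGGTCA).
Atp5g1: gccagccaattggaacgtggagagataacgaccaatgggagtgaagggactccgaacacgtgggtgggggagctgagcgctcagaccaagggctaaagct
Atp5g2: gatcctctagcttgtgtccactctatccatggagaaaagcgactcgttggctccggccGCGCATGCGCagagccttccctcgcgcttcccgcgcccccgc
Atp5g3: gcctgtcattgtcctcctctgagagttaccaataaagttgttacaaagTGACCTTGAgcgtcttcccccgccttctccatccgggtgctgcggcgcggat
The NRF1 motif begins 42 bases before this start site of Atp5g2, and Atp5k holds one as well. The deposited coordinates of Atp5g2 reach chr15:102672352, so the stretch shown lies inside the gene as annotated there, which begins farther upstream. Those of Atp5g1 reach chr11:96075670, so the last part of its stretch as printed also lies inside the annotated gene. Those of Atp5g3 reach chr2:73911326, and its stretch lies outside. The NRF1 motif is in 1.75% of all 32851 promoter windows. The ERR motif lies in the opposite strand of the Atp5g3 window and in 0.423% of all windows. Atp5g1 held neither, nor the ETS motif CCGGAAG (8.86% of all windows; in Atp5e and Atp5k), and the YY1 motif AAGATGGCG (1.40% of all windows) was in none of the 9 genes. These are matches of letters, and binding was not measured.

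The libraries held 11571142 to 19921061 counts (median 14420691), and the 10 genes together took 0.702 ± 0.071% of them at 0 mg/kg/day (SD, n = 17), 0.677 ± 0.074% at 1 (n = 16) and 0.565 ± 0.043% at 10 (n = 15). Skeletal muscle fibre markers (Acta1, Ckm, Myh4, Tnnt3 and Mb) summed to 56270 to 163200 CPM (counts scaled to library size) in the 48 libraries, although the extraction text of the labels names liver. In 6 libraries lymph node or liver transcripts stood out (Glycam1 at 30 counts or more, or Alb at 1000 or more), of which 4 were at 10 mg/kg/day. Within every stratum the numbers in the column headings of the deposited counts are higher at higher doses. What they number is not stated, and handling that followed these numbers cannot be told apart from dose.

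At 10 mg/kg/day 9 of the 10 ATP synthase genes fell against 0 mg/kg/day when averaged over the 4 strata, and none rose. Their median log2 fold change was -0.54, and over all genes tested it was 0.04. Atp5k fell by 45.0%, Atp5g3 fell by 44.75% and, at the other end of the 9, Atp5c1 fell by 25.2%. The exception was Atp5g2, at a log2 fold change of -0.07 ± 0.06 (SE), with an adjusted p of 0.373 and a 95% interval from -0.19 to 0.05. The test was edgeR's quasi-likelihood test with Benjamini-Hochberg adjustment over all 15583 genes. It called 22.5% of all genes lower and 25.0% higher in this contrast, so 9 of 10 is to be read against that share. These are bulk measurements, in which fewer mitochondria-rich fibres, a smaller share of muscle fibre RNA and less transcript per fibre cannot be told apart. The summed muscle fibre markers were also lower at 10, with a median of 82970 CPM against 134700 at 0, a difference that was not tested.

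**Figure D1:**
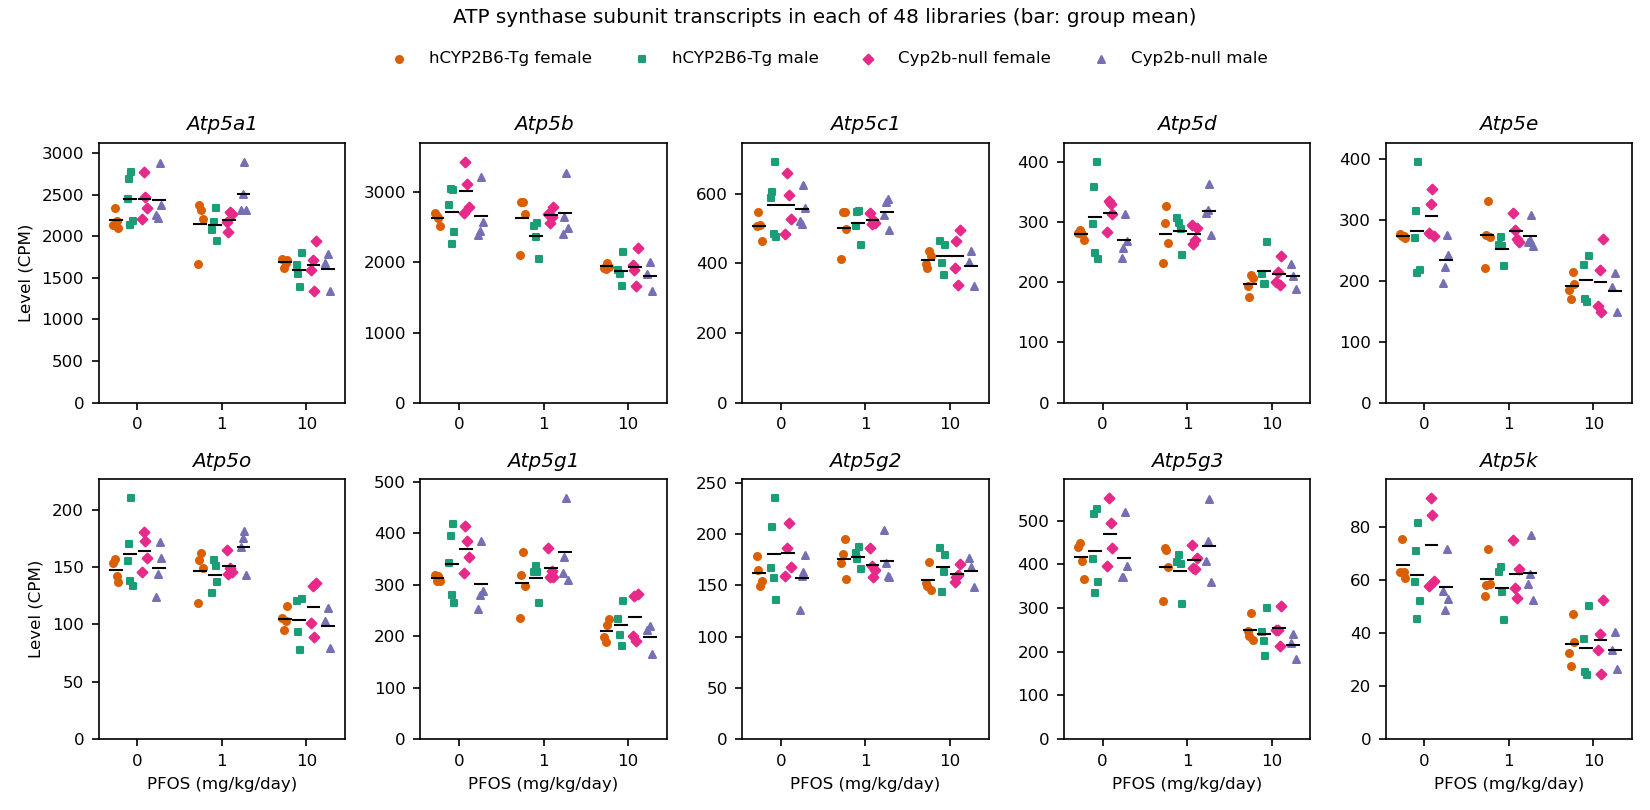
Level of each ATP synthase gene (y axis, CPM on TMM-scaled library sizes) in each library at 0, 1 and 10 mg/kg/day PFOS (x axis); points are single mice, coloured and shaped by genotype and sex, and bars are group means. Atp5a1 at 10 mg/kg/day stays at or below 1949 CPM, under the lowest library at 0 (2099 CPM), while the Atp5g2 panel shows overlapping levels at all doses.

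In the F1 head, the alpha subunit gene Atp5a1 ran from 2099 to 2883 CPM at 0 mg/kg/day (median 2337, n = 17) and from 1345 to 1949 CPM at 10 (median 1674, n = 15). Every library at 10 mg/kg/day lay below every library at 0, whatever its sex or genotype, which held for 3 of the 10 members and for 0.738% of all genes tested. The beta subunit gene Atp5b, which encodes the catalytic sites, ran from 2258 to 3435 CPM at 0 (median 2700) and from 1596 to 2201 CPM at 10 (median 1911). Here too the doses did not overlap. The log2 fold changes of the pair were nearly equal, -0.54 ± 0.06 (adjusted p = 7.15e-10) for Atp5a1 and -0.54 ± 0.06 (adjusted p = 6.68e-10) for Atp5b (chr10:128083273-128090391).

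In the central stalk, Atp5c1 (gamma, the shaft; chr2:10056016-10080510) ran from 464 to 691 CPM at 0 (median 526) and from 334 to 496 at 10 (median 403). Atp5d (delta; chr10:80138632-80145818) ran from 238 to 400 CPM at 0 (median 283) and from 175 to 267 at 10 (median 207). Atp5e (epsilon; chr2:174461072-174464105) ran from 196 to 395 CPM at 0 (median 273) and from 148 to 269 at 10 (median 190). For all 3 the medians were apart and the ranges over all mice overlapped. Log2 fold changes were -0.42 ± 0.06 for Atp5c1 (adjusted p = 2.20e-07), -0.48 ± 0.06 for Atp5d (adjusted p = 5.05e-08) and -0.50 ± 0.08 for Atp5e (adjusted p = 4.10e-06). Atp5d overlaps the gene Cbarp on the opposite strand, which had 1019 counts in all libraries against 183705 for Atp5d, and whether counting used strand is not given.

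In the peripheral stalk, Atp5o (chr16:91925214-91931687) ran from 124 to 210 CPM at 0 (median 156) and from 77.6 to 135.9 at 10 (median 103), with a log2 fold change of -0.56 ± 0.07 (adjusted p = 3.10e-08). Its doses did not overlap within any of the 4 strata. In the membrane part, Atp5k (chr5:108433244-108434448) was the least abundant of the 10 in CPM, from 45.2 to 90.9 at 0 (median 61.0) and from 24.4 to 52.7 at 10 (median 33.8). Its log2 fold change was -0.86 ± 0.11 (adjusted p = 1.82e-08), and it also varied most between mice of a group, with a within-group SD of 0.31 on the log2 scale against 0.16 for Atp5a1 and Atp5b. A processed copy, Atp5k-ps2, had at most 7 counts in a library, and Atp5k had 446 or more.

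Per kilobase of gene length in the deposited table, levels at 0 mg/kg/day were in the order Atp5a1 (761 ± 80.6 RPKM, SD, n = 17), Atp5b (650 ± 76.4), Atp5c1 (288 ± 35.04), Atp5g3 (198 ± 30.7), Atp5e (156 ± 29.0), Atp5d (153 ± 22.5), Atp5k (104.6 ± 21.2), Atp5g2 (102 ± 16.4), Atp5o (79.1 ± 10.6) and Atp5g1 (67.5 ± 10.8). The neighbours Atp5e and Atp5d, and Atp5k and Atp5g2, differed by less than the SD between mice. The order depends on length: that column counts every annotated exon, and with the median length of coding transcripts Atp5b (1438 ± 169 RPKM) came before Atp5a1 (927 ± 98.2). Other places changed as well. On that scale Atp5e (652.1 ± 121.1) and Atp5g3 (601.7 ± 93.24) came before Atp5c1 (550.1 ± 66.85), and Atp5o (251.5 ± 33.7) before Atp5k (200.4 ± 40.58).

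The c subunit genes did not fall together. Atp5g3 (chr2:73908447-73911326) fell in every stratum. In hCYP2B6-Tg females its levels were 439, 449, 408 and 367 CPM at 0 and 246, 235, 287 and 226 at 10 mg/kg/day. In hCYP2B6-Tg males they were 411, 516, 335, 527 and 360 CPM at 0 and 246, 225, 191 and 300 at 10. The doses did not overlap in either. In Cyp2b-null females they were 397, 551, 494 and 438 CPM at 0 and 249, 249, 212 and 304 at 10. In Cyp2b-null males they were 372, 371, 520 and 397 CPM at 0 and 221, 240 and 182 at 10. Again every mouse at 10 mg/kg/day was below every mouse at 0, and over all strata the log2 fold change was -0.86 ± 0.08 (adjusted p = 1.12e-11).

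Atp5g1 (chr11:96068852-96075670) ran from 252 to 419 CPM at 0 (median 319) and from 166 to 283 at 10 (median 213), with a log2 fold change of -0.60 ± 0.08 (adjusted p = 3.91e-08). The doses overlapped within hCYP2B6-Tg males and in none of the other 3 strata. Atp5g2 (chr15:102662864-102672352) did not pass. In hCYP2B6-Tg females it stood at 179.1, 165.2, 149.1 and 154.7 CPM at 0 and at 152.5, 149.4, 173.2 and 145.9 at 10 mg/kg/day. In hCYP2B6-Tg males it stood at 167.0, 207.4, 157.6, 235.0 and 135.9 CPM at 0 and at 186.7, 143.4, 162.8 and 179.3 at 10. High and low mice were mixed between the doses in both. In Cyp2b-null females it stood at 159.4, 186.3, 211.4 and 167.9 CPM at 0 and at 153.0, 158.3, 160.7 and 171.1 at 10. In Cyp2b-null males it stood at 126.2, 158.9, 162.8 and 179.9 CPM at 0 and at 176.7, 168.1 and 148.3 at 10. The doses overlapped in all 4 strata.

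Within a library the ratio of 2 genes does not depend on how library sizes are scaled. The log2 ratio of Atp5g2 to Atp5g3 counts rose by 0.80 from 0 to 10 mg/kg/day, averaged over strata, and all 15 libraries at 10 lay above the highest of the 17 at 0. The ratio of Atp5g2 to Atp5g1 rose by 0.55, with 13 of 15 libraries above the highest at 0, and that of Atp5g1 to Atp5g3 by 0.25, with 11 of 15. Each gave p = 1e-05 in a two-sided permutation test within strata, the smallest value that 100000 permutations can give, and 2e-05 after adjustment over 6 tests. These tests were added after the shares had been seen. Ratios of other gene pairs were not read for comparison. The CPM of Atp5g3 alone did not overlap between 0 and 10 mg/kg/day over all strata. As a share of the counts of the 3 genes, Atp5g2 made up 18.3 ± 1.49% at 0 (n = 17), 19.4 ± 2.29% at 1 (n = 16) and 26.3 ± 2.43% at 10 mg/kg/day (SD, n = 15). Atp5g3 went from 46.3 ± 1.71% to 38.7 ± 2.16% between 0 and 10, and Atp5g1 was at 35.4 ± 1.29% and 35.1 ± 2.27%. Per kilobase of gene length the Atp5g2 share was 27.8 ± 2.08% at 0 and 38.6 ± 2.97% at 10. The 3 genes together summed to 935 ± 140 CPM at 0, 911 ± 106.8 at 1 and 622 ± 74.3 at 10.

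**Figure D2:**
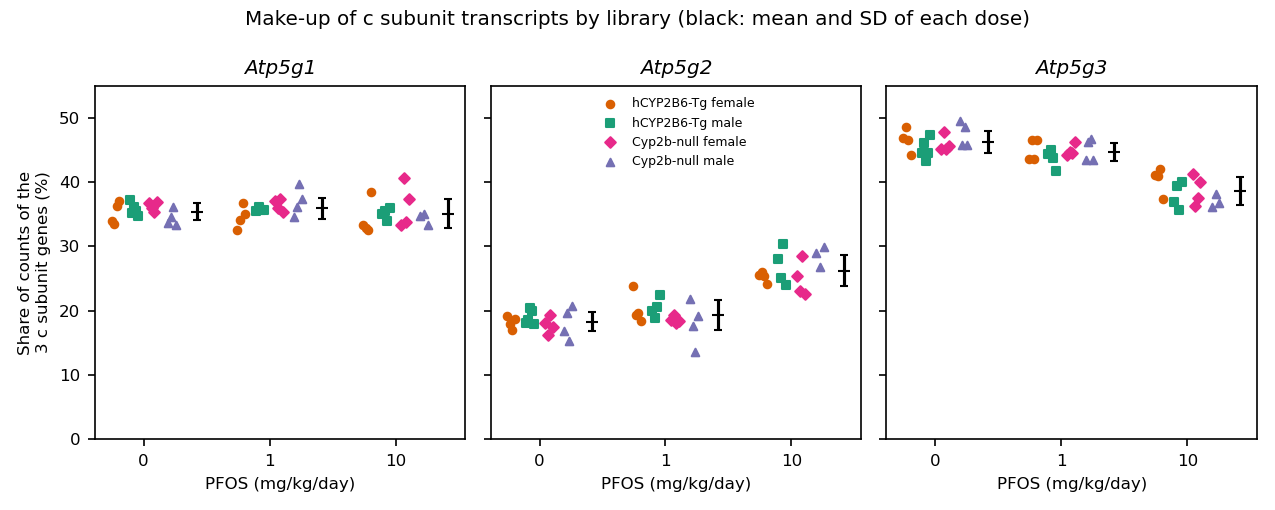
Share of each c subunit gene in the summed counts of Atp5g1, Atp5g2 and Atp5g3 (y axis, percent) per library by dose (x axis, mg/kg/day); points are mice, coloured and shaped by stratum, and black marks give the mean and SD of all mice at a dose. Atp5g2 shares at 10 mg/kg/day (22.6 to 30.4%) lie above all shares at 0 (15.2 to 20.8%).

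Within each stratum most members were lower too. Against a background of 13.5% of all genes called lower in hCYP2B6-Tg females, 9 of the 10 genes passed as lower there. In hCYP2B6-Tg males 9 passed (background 10.6%), in Cyp2b-null females 9 (background 6.87%) and in Cyp2b-null males 7 (background 8.36%). Median log2 fold changes were -0.50, -0.57, -0.60 and -0.57 in that order. In Cyp2b-null males Atp5d was at -0.36 ± 0.14 (adjusted p = 0.0623) and Atp5e at -0.35 ± 0.18 (adjusted p = 0.189), and neither passed. Atp5g2 passed in no stratum, with values from -0.17 in Cyp2b-null females to 0.07 in Cyp2b-null males. The count in Cyp2b-null males was 3 without replicate 3 at 10 mg/kg/day, one of the 6 libraries with other tissue's transcripts, and 3 without all 6. The call of Atp5c1 in hCYP2B6-Tg females (adjusted p = 0.0456) was lost when any of 6 of their 8 libraries was left out (replicates 1, 2 and 3 at 0, and 1, 2 and 4 at 10 mg/kg/day). That of Atp5e in hCYP2B6-Tg males (adjusted p = 0.0234) was lost with any of 4 of their 9 left out (replicates 2 and 4 at 0, and 2 and 3 at 10). In males of Cyp2b-null the call of Atp5k (adjusted p = 0.0179) was lost with any of 3 of 7 left out (replicate 3 at 0, and 1 and 3 at 10). Of the 34 calls within strata, 24 held with each single library of the contrast left out, and 16 of those also held under all 12 other settings tried. In Cyp2b-null females the count was 5 without those with other tissue's transcripts and 4 when only the groups compared were fitted. All libraries at 10 mg/kg/day lay below all at 0 for 9 of the 10 genes in females of hCYP2B6-Tg (12.8% of all genes tested) and for 5 in males (7.3%). In Cyp2b-null it was 8 in females (7.28%) and 8 in males (13.9%).

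**Figure D3:**
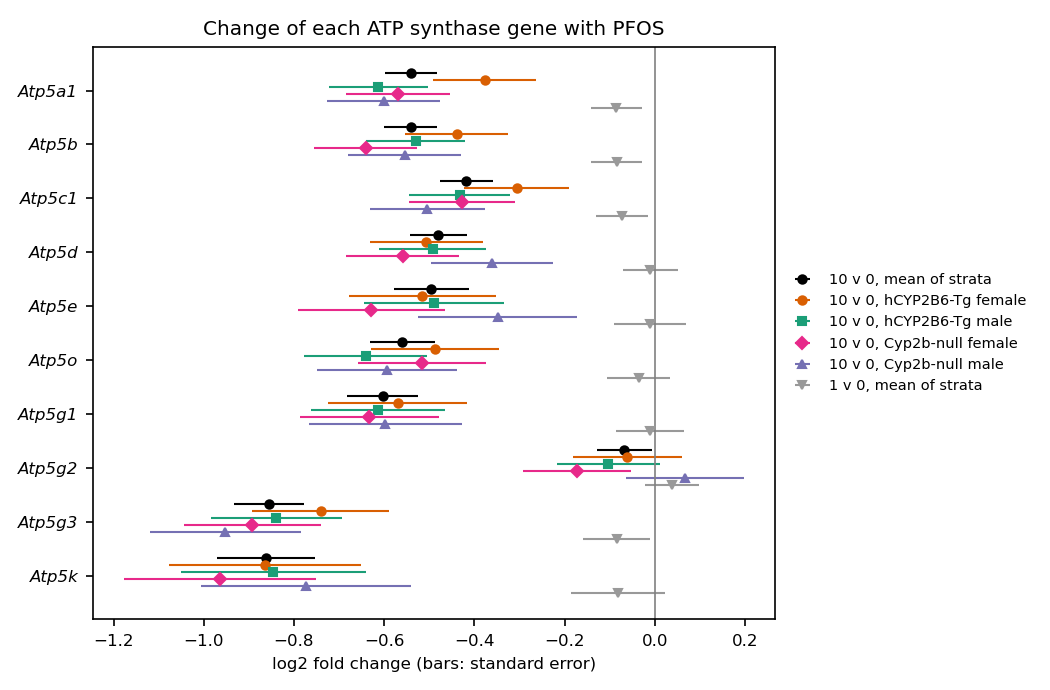
log2 fold change (x axis) of each ATP synthase gene (y axis) for 10 against 0 mg/kg/day in each stratum and as their mean, and for the mean of 1 against 0; bars are standard errors. Atp5g3 and Atp5k lie farthest to the left (-0.86 averaged over strata), Atp5g2 lies at -0.07, and the values for 1 mg/kg/day lie between -0.09 and 0.04.

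Whether the response depended on sex or genotype was tested as an interaction. No member passed for sex, where 0.128% of all genes did, and the largest difference between the sexes by edgeR was 0.15 for Atp5e, with a 95% interval from -0.17 to 0.47. No member passed for genotype, where 0% of all genes did. By edgeR 0 members had an unadjusted p under 0.05 in either test, where 1490 genes had one for sex and 1378 for genotype. After adjustment DESeq2 and limma called 0 members as well. At an unadjusted p under 0.05 limma had 1 member for sex and 0 for genotype, its largest difference between the sexes was 0.32, and DESeq2 had 0 in both. At 0 mg/kg/day no member differed between males and females (7.59% of all genes did) or between the genotypes (0% of all genes), and 0 members had an unadjusted p under 0.05 in either contrast by edgeR, where 3239 genes had one for sex and 535 for genotype. DESeq2 and limma also called 0 in these contrasts, and between the sexes limma had 2 members at an unadjusted p under 0.05 (largest difference 0.29).

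At 1 mg/kg/day no ATP synthase gene passed against 0, averaged over strata (0% of all genes passed) or in any stratum (0% in 3 strata, 0.0128% in hCYP2B6-Tg males). By edgeR 0 of the 10 and 578 of all genes had an unadjusted p under 0.05 in the average, and DESeq2 and limma also called 0 members. Within strata limma had 2 members at an unadjusted p under 0.05 in males of Cyp2b-null, and edgeR had 0 in every stratum. The averaged log2 fold changes ran from -0.09 for Atp5a1, with a 95% interval from -0.20 to 0.03, to 0.04 for Atp5g2, with an interval from -0.08 to 0.15. Strata differed in sign without passing: the median of the 10 genes was -0.01 in females and -0.15 in males of hCYP2B6-Tg, and -0.16 in females and 0.14 in males of Cyp2b-null. The ratio of Atp5g1 to Atp5g3 was higher at 1 than at 0 mg/kg/day by 0.07 on the log2 scale (permutation p = 0.0189, 0.0284 adjusted over the 6 ratio tests), with 6 of 16 libraries above the highest at 0. The ratio of Atp5g2 to Atp5g3 differed by 0.13 (permutation p = 0.0568, adjusted 0.0682), and that of Atp5g2 to Atp5g1 by 0.06 (permutation p = 0.413). Between 10 and 1 mg/kg/day 9 of 10 genes were lower (background 22.2%), with a median of -0.48, and Atp5g2 was at -0.11 ± 0.06 (adjusted p = 0.158). This contrast and that of 10 against 0 share the mice at 10 mg/kg/day.

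**Figure D4:**
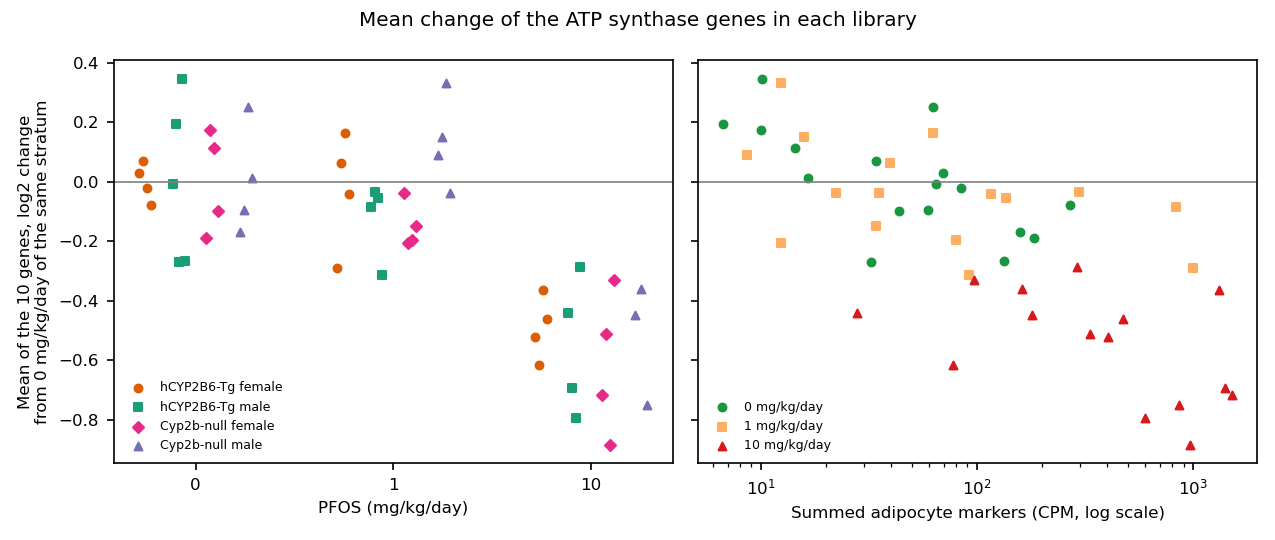
Left, mean log2 change of the 10 ATP synthase genes in each library from the mean at 0 mg/kg/day of its stratum (y axis) by dose (x axis, mg/kg/day). Right, the same values against the summed level of 8 adipocyte markers (x axis, CPM, log scale), with points coloured and shaped by dose. Libraries at 10 mg/kg/day lie between -0.89 and -0.29 on the y axis.

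Per mouse, the mean change of the 10 genes at 10 mg/kg/day was -0.49 ± 0.11 in hCYP2B6-Tg females (SD, n = 4), -0.55 ± 0.23 in hCYP2B6-Tg males (n = 4), -0.61 ± 0.24 in Cyp2b-null females (n = 4) and -0.52 ± 0.20 in Cyp2b-null males (n = 3). Transcripts of other tissue did not all move with dose, and their differences were not tested. Median sums were higher at 10 than at 0 mg/kg/day for adipocyte, brown adipocyte, hepatocyte and Schwann cell markers, and lower for lymph node markers. Endothelial cell markers had medians of 231.7 CPM at 0 and 208.3 at 10, and macrophage markers 16.15 and 19.43. For both lists the range at 10 lay inside that at 0. All 8 adipocyte markers (Adipoq, Adig, Cfd, Cidec, Lep, Plin1, Retn and Slc7a10) were detected, and their sum ran from 6.70 to 269 CPM at 0 (median 59.2) and from 27.9 to 1502 CPM at 10 mg/kg/day (median 404). The muscle fibre markers summed to 109000 to 163200 CPM at 0 (median 134700) and 56270 to 124300 at 10 (median 82970). The 6 slow fibre markers summed to 14.6 to 4713 CPM at 0 (median 402) and 123 to 4324 at 10 (median 824). Their range at 10 lay inside that at 0. All 4 Schwann cell markers were detected, with sums from 21.3 to 525 CPM at 0 (median 59.8) and from 32.3 to 248 CPM at 10 (median 115.6). Here too the range at 10 lay inside that at 0. With the slow fibre markers as a covariate 9 of the 10 genes were called lower in the average over strata, with a median of -0.54. The part of the other fibre markers and of Schwann cell transcripts in the members' levels was not tested. The library with the lowest adipocyte sum at 10 mg/kg/day (hCYP2B6-Tg male replicate 1, 27.9 CPM) had a mean change of -0.44. That with the highest (Cyp2b-null female replicate 1, 1502 CPM) was at -0.72. Within strata the direction differed. Of the hCYP2B6-Tg females at 10 mg/kg/day, replicate 2 (77.4 CPM) was at -0.62 and replicate 3 (1310 CPM) at -0.36. In each other stratum the library with the highest adipocyte sum at 10 had a lower mean change than that with the lowest. The values were -0.70 (1404 CPM) and -0.44 (27.9 CPM) in hCYP2B6-Tg males. They were -0.72 (1502 CPM) and -0.33 (96.8 CPM) in Cyp2b-null females and -0.75 (861.5 CPM) and -0.36 (160.8 CPM) in Cyp2b-null males. With the adipocyte markers as a covariate 9 of the 10 genes were still called lower in the average over strata, with a median of -0.37. Within strata this covariate left 3 genes in Cyp2b-null females and 5 in males of hCYP2B6-Tg. Mitochondrially encoded transcripts took 10.6 ± 1.33% of counts at 0 and 7.66 ± 1.27% at 10, and the 20 most abundant genes 36.4 ± 1.42% and 31.2 ± 2.96%. On library totals without scaling factors, 82.1% of called genes were higher against 52.6% with TMM, and 67.0% on library sizes without mitochondrial and the 20 most abundant genes. On unscaled totals the median over all genes was 0.26 and that of the members -0.33. On those totals 9 members were called lower, and Atp5g2 was called higher against a log2 fold change of 0 (0.16, adjusted p = 0.0079) although it lay below the median of all genes. A call for Atp5g2 depends on scaling, and the ratios between the c subunit genes do not.

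Genes outside the 10 that belong to the same enzyme were read from lists. All 7 other nuclear subunit genes fell at 10 mg/kg/day (median -0.60). Atp5f1, Atp5h and Atp5j encode the remaining peripheral stalk subunits (b, d and F6), and their log2 fold changes were -0.55 ± 0.06, -0.60 ± 0.07 and -0.80 ± 0.08. The membrane subunit genes Atp5j2 (subunit f) and Atp5l (subunit g) were at -0.68 ± 0.08 and -0.34 ± 0.08, and the small membrane components Usmg5 and Atp5mpl at -0.58 ± 0.09 and -0.60 ± 0.09. The other membrane subunits are encoded in mitochondrial DNA. mt-Atp6, the proton channel subunit a, fell by 0.83 ± 0.15 on the log2 scale (adjusted p = 2.04e-05), and mt-Atp8 by 0.59 ± 0.18 (adjusted p = 0.0070). The mitochondrial genes overlap each other on the same strand, so reads from the overlap could go to either. Within strata mt-Atp6 passed in Cyp2b-null females (-1.48 ± 0.31) and in none of the other 3, and its genotype difference did not pass (adjusted p = 0.563).

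Of the inhibitor and assembly genes 8 of 9 fell (median -0.45). Atpif1, the inhibitor that blocks ATP hydrolysis when the proton gradient fails, was at -0.58 ± 0.09. The F1 assembly factors Atpaf1 and Atpaf2 were at -0.49 ± 0.07 and -0.16 ± 0.05, and Atpaf2 stood at 0.06 on unscaled totals (adjusted p = 0.270). Fmc1, which acts with Atpaf2, was at -0.23 ± 0.07. Tmem70 and Tmem242, which help to build the c ring into the complex, were at -0.45 ± 0.05 and -0.60 ± 0.07. Atp23 and Atp5s were at -0.53 ± 0.15 and -0.30 ± 0.07. Fam173b, a lysine methyltransferase that acts on subunit c, was at -0.07 ± 0.09 and did not pass (adjusted p = 0.529). Among the carriers that supply the enzyme, the phosphate carrier Slc25a3 fell by 0.39 ± 0.06 and the muscle ADP/ATP carrier Slc25a4 by 0.61 ± 0.07 on the log2 scale. The ADP/ATP carrier of most other tissues, Slc25a5, rose by 0.30 ± 0.11 (adjusted p = 0.0240), and with the adipocyte covariate it was at 0.05 (adjusted p = 0.790). Among the mice at 10 mg/kg/day, its call was also lost without Cyp2b-null female replicate 1 (0.21) or Cyp2b-null male replicate 3 (0.22). A further ADP/ATP carrier, Slc25a31, did not pass the filter on low counts.

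**Figure D5:**
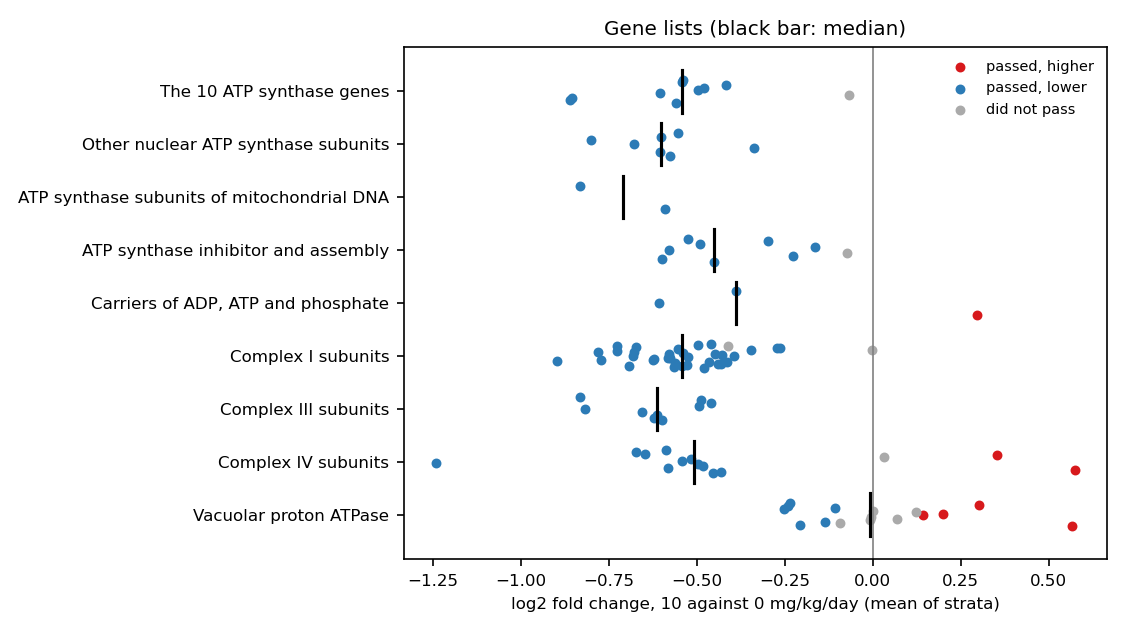
Mean log2 fold change of the strata for 10 against 0 mg/kg/day (x axis) of every tested gene in the ATP synthase lists and in 4 lists set beside them (y axis); colours show whether a gene passed the test and in which direction, and black bars are medians. The medians of the ATP synthase genes (-0.54) and of complexes I, III and IV (-0.54, -0.61 and -0.51) lie left of that of the vacuolar ATPase (-0.01).

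Complexes I, III and IV of the respiratory chain, which build the proton gradient that ATP synthase uses, gave similar counts. In complex I 34 of 36 genes were lower and none higher (median -0.54; Ndufa7 and Ndufa12 did not pass), and in complex III all 9 were lower (median -0.61). Their lowest p-values belonged to Ndufs1 (-0.90 ± 0.07) and Uqcrc1 (-0.82 ± 0.07). In complex IV 11 of 14 were lower (median -0.51) and 2 higher, Cox8a (0.58 ± 0.13) and Cox6a1 (0.35 ± 0.15, adjusted p = 0.0425), named, like other single genes given here beside a count, after the values were seen. The vacuolar proton ATPase, a related rotary enzyme that acidifies lysosomes, had 6 of 16 genes lower, 4 higher and a median of -0.01. Its lowest p-values belonged to Atp6ap1 (-0.23 ± 0.04) and Atp6v1h (0.57 ± 0.12). No test of a difference between these lists was made.

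The members varied together between mice. Pearson's r of log2 CPM over the 48 libraries, which share dose and scaling, ran from 0.37 to 0.97 over the 45 pairs of members (median 0.92). After group means were taken away it ran from 0.42 to 0.94 (median 0.85). Pairs of other genes were not read for comparison. Differences in tissue make-up between libraries of a group remain in these values. Atp5g2 had a mean r of 0.50 with the other members, and the other 9 had means from 0.86 to 0.89. Outside the members, the genes most like their mean over all 48 libraries were Atp5f1 (r = 0.98), Atp5j2 (0.98), Atp5j (0.98), Cox5b (0.98), Cyc1 (0.98) and Ndufa11 (0.98). After group means were taken away they were Atp5j (0.97), Cox6b1 (0.96), Atp5f1 (0.96), Atp5j2 (0.96), Cox6c (0.95) and Ndufv2 (0.94). The ATP synthase genes Atp5f1, Atp5j and Atp5j2 were on both lists, and the others are subunits of complexes I, III and IV.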

How the data were processed

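Counts were deposited by the authors as 1 table of raw reads per gene for 48 libraries, with symbols, lengths and coordinates. The submitters' processing notes name HISAT2 and GRCm39; for counter and strand setting nothing is stated there or in the labels. Coordinates follow GRCm38: of 54409 identifiers found in GENCODE vM21, 53499 (98.3%) have the same start and end. RNA was purified as messenger RNA, per the labels. The members and the gene lists were chosen with earlier results of these data known. All 10 members are named, as are genes of the ATP synthase and carrier lists. Of the compared complexes only counts and medians were planned.

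Counts were filtered with filterByExpr and scaled with TMM in edgeR 4.0.16 (R 4.3.3). Models with 1 coefficient for each of the 12 groups (36 residual df, biological coefficient of variation 23.5%) were tested with glmQLFTest, two-sided, for 15 contrasts, with Benjamini-Hochberg adjustment over 15583 genes and a threshold of 0.05. Standard errors were derived from the F statistic, and 95% intervals are the estimate plus or minus a normal multiple of that error. Averages weight the 4 strata equally. CPM and RPKM were computed from the counts on TMM-scaled library sizes. Over 73 pairs of libraries within groups chi-square divided by df was at least 7.24, so no library was taken as a copy. The procedure was tested on simulated data. Alternatives included DESeq2 1.42.0, limma 3.58.1 (voom with quality weights), other scalings and filters, covariates, a replicate block, leaving out single libraries and, chosen after seeing the data, leaving out 6 libraries. No test was planned for the c subunit genes; the permutation tests of their ratios were chosen after seeing the data. Labels number the mice within groups, and each library was taken as 1 mouse.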

Additional observations from a re-analysis of the deposited data

Results flagged for a closer look

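Of 110 sets of 4 or 5 libraries examined (each of the 10 genes in each group of that size), 1 held a library far from the others, where chance alone would flag about 1 in 20. Atp5k in hCYP2B6-Tg females at 0 mg/kg/day was at 75.75 CPM in replicate 2, and the other 3 libraries were at 60.98 to 63.17 CPM. The gap to the nearest library was 0.852 of the range of the group.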

How the results depend on the processing

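Averaged over strata, 9 members were lower at 10 mg/kg/day under all 12 alternatives and with each of 32 libraries left out, and 0 were called at 1 mg/kg/day. With the adipocyte covariate the count in strata was 3 in Cyp2b-null females and 5 in males of hCYP2B6-Tg. Without the 6 libraries with lymph node or liver transcripts it was 5 in Cyp2b-null females and 3 in Cyp2b-null males, and 4 in Cyp2b-null females with only the groups compared. With single libraries left out it ran from 3 to 8 in Cyp2b-null males, lowest without replicate 3 at 10 mg/kg/day. The cause was not tested. On unscaled library totals 1642 genes were lower and 7520 higher, against 3511 and 3892, and Atp5g2 (0.1551, adjusted p = 0.0079 by edgeR) and Atpaf2 (0.0561) changed sign. Fam173b, which did not pass in the main test, ran from -0.0943 to 0.1493 over the 12 alternatives. With the replicate block 9 members were lower and 3493 genes were lower and 3876 higher; deviations of same-numbered libraries were not correlated (mean r -0.0086, against 0.003 for other numbers; 1 of 48 libraries correlated best with its own number), so the numbers were not taken to pair mice. Calls for Atp5l, mt-Atp8, Atpaf2, Fmc1, Atp23, Atp5s and Slc25a5 were lost under 1 to 4 of 12 alternatives each. Without the 6 libraries the ratios of Atp5g2 to Atp5g3 and to Atp5g1 differed by 0.75 and 0.48 between 10 and 0 mg/kg/day (permutation p = 1e-05 each, the smallest possible). At 1 mg/kg/day that of Atp5g1 to Atp5g3 differed by 0.09 (permutation p = 0.0040), and with single libraries left out by 0.06 to 0.08. Depth did not limit the members, whose lowest count in a library was 446 (Atp5k).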
